A study of Rattus norvegicus with 4 samples.

Results

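Guanine deaminase and the enzymes of purine salvage were examined in RT4D6 cells, a rat Schwannoma line, after siRNA against Sox10. The genes are Gda, Hprt1, Pnp, Xdh, Ada, Adk, Aprt, Impdh1, Impdh2 and Nt5e, and a probe set belongs to the set if the platform annotation gives it a single symbol that is exactly one of these names. Of the 10 genes 8 have a probe set there, among 14217 genes with one on the array. They have 11 of the 31042 probe sets that are no controls. Impdh1 and Impdh2 have none under this rule and are not measured here.

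RNA was profiled on 4 one-colour Affymetrix Rat 230 2.0 arrays. The wild type siRNA is specific for Sox10, and the mutant siRNA serves as its control. Each group has 2 arrays, both siRNAs were applied to the same line, and the labels give 48 h for every sample. The study describes independent pairs of cell samples, which the labels number as replicate 1 and replicate 2. Untreated cells were not analysed here, and a tumour line stands for Schwann cells, the glia of peripheral nerve. The deposited value is a MAS5 signal, an intensity on a linear scale that summarises the probes of a probe set. With 2 arrays in each group, their number limits the precision of every value.

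The targeted gene, Sox10, gave signals of 163.4 and 335.4 under the specific siRNA and of 2872.6 and 2890.1 under the mutant siRNA. The difference was in the labelled direction in both pairs. On mutant siRNA replicates 1 and 2 Ngfr had signals of 4556.9 and 3873.6 and S100b of 6808.1 and 3685.5. Both mark Schwann cells. The glial filament gene Gfap had 511.0 and 380.3 there. The 2% trimmed mean was 500.2 on all 4 arrays, the array medians lay between 101.3 and 110.4 and the 25th percentiles between 26.2 and 31.0. The actin ratio of 3' to 5' probe sets, which tells of RNA quality, was 1.87 on mutant siRNA replicate 1 and 1.39 to 1.54 on the other arrays. The same ratio for Gapdh was 1.06 on mutant siRNA replicate 1, the lowest of the arrays, and 1.07 to 1.11 on the others.

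Purine nucleotides are made either from small precursors or by salvage, in which a free base or nucleoside is turned back into a nucleotide. Hprt1 salvages hypoxanthine and guanine, Aprt salvages adenine, and Adk phosphorylates adenosine. Pnp releases the base from inosine and guanosine, Ada deaminates adenosine, and Xdh oxidises hypoxanthine and xanthine on the way to uric acid. Guanine deaminase, also called cypin, turns guanine into xanthine and so takes guanine out of the reach of salvage. In neurons cypin also binds the postsynaptic scaffold Dlg4 and is known for promoting the branching of dendrites. Impdh1 and Impdh2 make the first committed step towards guanine nucleotides. Nt5e, the surface protein CD73, makes extracellular adenosine from AMP.

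Upstream sequence is shown for Gda and Hprt1 because their probe sets are the ones that passed the test below. Both are the 250 bases before the RefSeq start of the gene on the rat assembly GRCr8, written in the sense of the gene. Gda lies on the minus strand, at chr1:228408902-228409151, and Hprt1 on the plus strand, at chrX:137655494-137655743. Capitals mark CCAAT or its reverse complement ATTGG, and GGGCGG or its reverse complement CCGCCC. The core of Sox binding sites, ACAAT or its reverse complement ATTGT, was also searched and would be in capitals.
Gda upstream: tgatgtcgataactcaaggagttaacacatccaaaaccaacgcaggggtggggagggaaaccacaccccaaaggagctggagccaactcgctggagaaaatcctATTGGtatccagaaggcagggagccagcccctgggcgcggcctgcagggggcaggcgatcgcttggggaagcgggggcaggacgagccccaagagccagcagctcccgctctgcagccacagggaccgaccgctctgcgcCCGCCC
Hprt1 upstream: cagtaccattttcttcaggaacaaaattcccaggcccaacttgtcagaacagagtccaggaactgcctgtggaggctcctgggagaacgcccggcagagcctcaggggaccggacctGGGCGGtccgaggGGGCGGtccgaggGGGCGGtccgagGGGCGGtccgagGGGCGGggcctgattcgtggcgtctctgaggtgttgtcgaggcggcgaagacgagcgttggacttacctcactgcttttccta

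The Gda window holds one ATTGG and one CCGCCC, and the Hprt1 window holds 5 copies of GGGCGG between 133 and 83 bases before the start. All 10 genes have a window in the RefSeq table, and Impdh1 has more than one, which gives 11 windows. The letters GGGCGG or CCGCCC are in the windows of 7 of the 10 genes, against 30.5% of all 33469 windows of this length. The letters CCAAT or ATTGG are in those of 5 genes, Gda, Pnp, Xdh, Adk and Aprt, against 34.0% of all windows. The letters ACAAT or ATTGT are in the window of 1 gene, Xdh, against 30.0% of all windows. These windows end at the start of the gene. The study searched farther, to the end of the first intron, and lists a conserved ACAAT site in an intron of Gda. In Xdh the match begins 137 bases before the start and is in capitals in its surroundings. They are shown because no other gene of the set has a match in its window.
Xdh upstream: tccttcctggATTGTgcaaacctgt

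The study designed primers for Gda, which are shown because they name the stretch it tested in chromatin and the transcript it measured by PCR. They were not placed on a genome here.
Gda chromatin primer, sense: tgctgtgaagaacaggacacg
Gda chromatin primer, antisense: acctgaaacctcgcacacag
Gda transcript primer, sense: gaaaagcctcaccctcaaag
Gda transcript primer, antisense: atcaatgggagagtccgatg

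Signals were turned to log2, centred on each array's median and tested with limma, with Benjamini-Hochberg adjustment over all probe sets whose signal reached the median of its array on 2 or more of the 4 arrays. The log2 fold change is the specific minus the mutant siRNA, and a probe set was called at an adjusted p under 0.05. Of the 11 probe sets 10 were tested, from 7 genes, and that of Xdh was too dim. With the specific siRNA 3 probe sets were lower, both of Gda and that of Hprt1, where 12.1% of all 16125 tested probe sets were called lower. None of the 10 was called higher, where 14.6% of all were, and 2 of them, of Pnp and Aprt, were higher at an unadjusted p under 0.05. By genes, 2 of 7 had a lower probe set, against 12.8% of all genes tested, and none a higher one, against 19.7%. The median log2 fold change was -0.47 over the 10 probe sets and 0.13 over all probe sets tested, so that the centre of this scale lies slightly above 0. Gda, which the study chose for its fall on these same arrays, enters these counts and the median of the 10. They are thus no independent evidence of a lower level, and apart from Gda only Hprt1 was called. In bulk RNA, fewer cells of a type and less RNA per cell cannot be told apart.

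**Figure D1:**
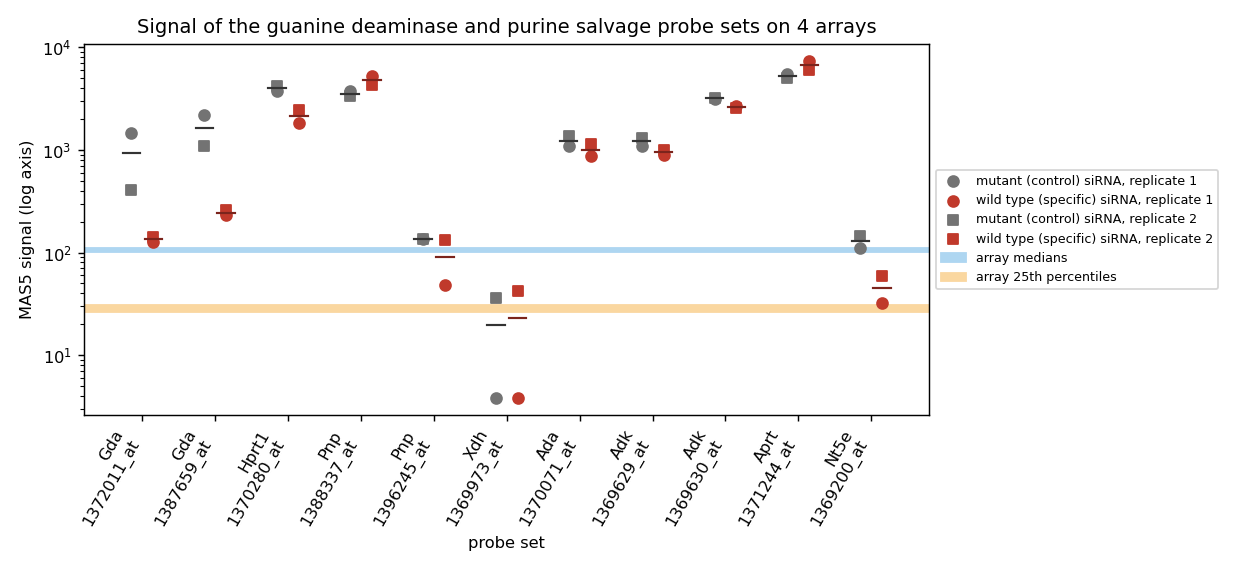
MAS5 signal on a log axis for the 11 probe sets, with circles for replicate 1, squares for replicate 2, grey for the mutant siRNA, red for the specific siRNA and short lines for group means; the bands are the ranges of the array medians and 25th percentiles. Both Gda probe sets and Hprt1 have all their mutant siRNA signals above their specific siRNA signals, and Xdh lies around the 25th percentiles or below.

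Gda was the gene of the set with the largest difference. Probe set 1387659_at had signals of 230.2 and 258.8 under the specific siRNA and of 2198.5 and 1087.5 under the mutant siRNA. Probe set 1372011_at had 126.4 and 141.6 under the specific siRNA and 1449.8 and 406.9 under the mutant siRNA. The groups did not overlap for either probe set, the specific siRNA arrays lay close together, and mutant siRNA replicate 1 was the highest array for both.

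The first of these probe sets averaged 245 ± 20.2 (SD, n = 2) under the specific siRNA and 1643 ± 786 (SD, n = 2) under the mutant siRNA. This is a log2 fold change of -2.58 with an SE of 0.33 and a 95% confidence interval from -3.35 to -1.82, or 3.53- to 10.2-fold lower, and its adjusted p was 0.0027. The other averaged 134 ± 10.8 (SD, n = 2) and 928 ± 737 (SD, n = 2), with a log2 fold change of -2.44, an SE of 0.52, an interval from -3.63 to -1.25, a 2.39- to 12.4-fold lower level and an adjusted p of 0.012. Among all 16125 log2 fold changes tested they ranked 172 and 227 from the lowest. The study chose Gda for its fall on these same arrays, so these tests are no independent evidence of the direction. By real time PCR the study also found Gda lower under the specific siRNA, as it did for its other chosen genes. Gda is not among the genes that it names as bound by Sox10 in its chromatin test.

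The fall was larger in the replicate 1 pair than in the replicate 2 pair for both probe sets. For 1387659_at the specific siRNA array was 9.33-fold lower in the replicate 1 pair and 3.86-fold lower in the replicate 2 pair, and for 1372011_at 11.2-fold and 2.64-fold lower, after median centring. Within the mutant siRNA group replicate 1 was 2.02 times replicate 2 for the first probe set and 3.56 times for the second. Without mutant siRNA replicate 1 the log2 fold change of 1387659_at was -2.06, still called with an adjusted p of 0.018, while that of 1372011_at was -1.51 with an adjusted p of 0.057, no longer called. Without mutant siRNA replicate 2 that of 1372011_at was -3.38, with an adjusted p of 0.0043. Mutant siRNA replicate 1 was also the array with the actin ratio of 1.87, while its Gapdh ratio of 1.06 was the lowest. The summed signal of 8 Schwann cell and glial probe sets was 18370 on it and 13280 on mutant siRNA replicate 2. Of these probe sets, Sox10 (2872.6 and 2890.1) and L1cam (1295.2 and 1596.4) were lower on replicate 1. The others were higher on it, with S100b at 6808.1 and 3685.5. The part of these ratios and signals in the spread of Gda was not tested.

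**Figure D2:**
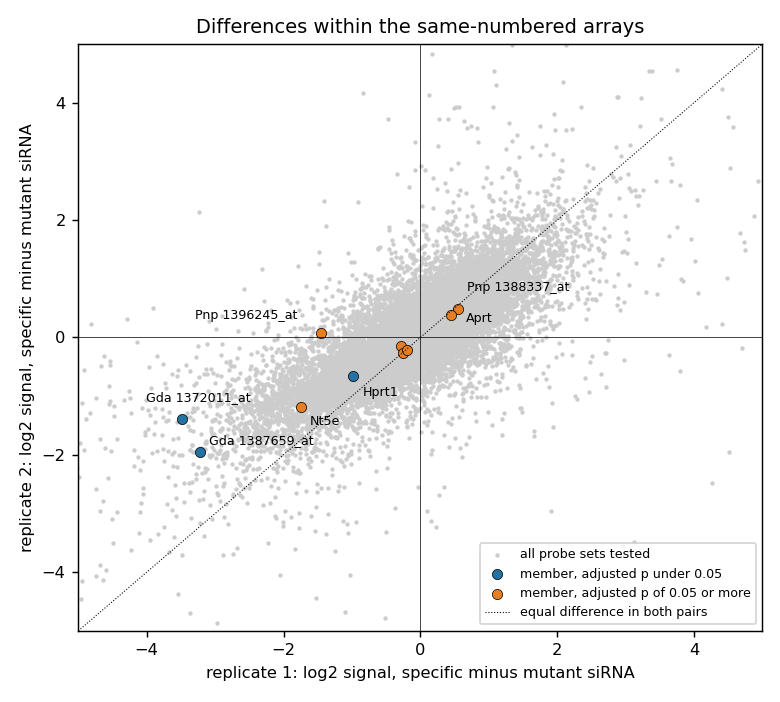
Log2 difference of specific minus mutant siRNA in the replicate 1 pair (x axis) and the replicate 2 pair (y axis), after median centring, for all 16125 probe sets tested (grey; 58 lie outside the axes) and the 10 of the set, blue where called. Gda, with -3.22 and -1.95 for 1387659_at and -3.49 and -1.40 for 1372011_at, lies above the dotted line of equal differences, since its fall was larger in the replicate 1 pair.

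The probe sets of other genes most like Gda 1387659_at over the 4 arrays were found by the distance between log2 profiles, each minus its own mean, among 12695 tested probe sets with a single symbol. They were Vwa1, a matrix protein, at a distance of 0.19, Agap1, which acts on Arf GTPases, at 0.24, Spon1, a secreted matrix protein, at 0.30, Abca1, a cholesterol exporter, at 0.30, and Gal3st1, which makes the myelin lipid sulfatide, at 0.32. The nearest, Vwa1, had signals of 137.7 and 134.8 under the specific siRNA and of 1107.8 and 574.4 under the mutant siRNA, so that it too was highest on mutant siRNA replicate 1. The other Gda probe set lay at 0.60, and 26 probe sets of other genes were closer. These genes were chosen for this likeness, over 4 arrays that the 2 groups split, and the distances are a description.

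Of the phosphoribosyltransferases, which join a free base to a sugar phosphate, Hprt1 passed the test and Aprt did not. Hprt1 fell under the specific siRNA: its signals were 1845.5 and 2454.4, against 3728.9 and 4234.0 under the mutant siRNA, and both specific siRNA arrays lay below both others. The means were 2150 ± 431 and 3981 ± 357 (SD, n = 2 each). The log2 fold change was -0.82 with an SE of 0.20 and an interval from -1.29 to -0.36, which is 1.77-fold lower, with an adjusted p of 0.021. The fall was 1.97-fold in the replicate 1 pair and 1.58-fold in the replicate 2 pair. Without specific siRNA replicate 1 the log2 fold change was -0.59 with an adjusted p of 0.086, leaving out mutant siRNA replicate 1 gave -0.90 with 0.071, and leaving out mutant siRNA replicate 2 gave -0.75 with 0.11, so that the call rests on each of these arrays. Of all log2 fold changes tested, 15.1% were lower than that of Hprt1.

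Aprt had signals of 7371.5 and 6058.5 under the specific siRNA and of 5511.2 and 5069.5 under the mutant siRNA, and the groups did not overlap. The log2 fold change was 0.42 with an SE of 0.16 and an interval from 0.05 to 0.79, with an adjusted p of 0.089, which did not pass. With the replicate number as a block the adjusted p was 0.023, and the difference was then called as higher. With this block 3308 of all 16125 tested probe sets were called higher. In the signals as deposited, without median centring, the log2 fold change was 0.34. The difference between the changes of Hprt1 and Aprt was not tested.

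Among the enzymes of breakdown, Pnp is measured by a bright and a dim probe set. The bright one, 1388337_at, had signals of 5305.7 and 4279.2 under the specific siRNA and of 3711.7 and 3319.8 under the mutant siRNA, both specific siRNA arrays being above both others. With a log2 fold change of 0.52, an SE of 0.18, an interval from 0.12 to 0.92 and an adjusted p of 0.058, it lay just outside the threshold. With the replicate block the adjusted p was 0.013, and without specific siRNA replicate 2 it was 0.044, both called as higher.

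The dim one, 1396245_at, had 48.2 and 131.4 under the specific siRNA and 135.2 and 136.5 under the mutant siRNA. A single array, specific siRNA replicate 1, lay apart from the other 3 in it. Its log2 fold change was -0.69 with an SE of 0.60 and an interval from -2.05 to 0.67, opposite in sign to that of the bright probe set, with an adjusted p of 0.41. Without that array it was 0.06.

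Xdh gave no comparison. Its only probe set had signals of 3.8 and 42.3 under the specific siRNA and of 3.8 and 35.9 under the mutant siRNA. All 4 lay below the array medians, and the arrays split by replicate number, not by siRNA. Fitted without the filter on dim probe sets, the log2 fold change was 0.20 with an interval from -3.44 to 3.83, wide on both sides of 0.

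The enzymes that act on adenosine inside the cell did not pass the test. Ada had signals of 878.8 and 1129.9 under the specific siRNA and of 1091.0 and 1368.1 under the mutant siRNA, and these groups overlapped. Its log2 fold change was -0.21 with an SE of 0.23, an interval from -0.73 to 0.30 and an adjusted p of 0.51. Adk was brighter under the mutant siRNA in both its probe sets, by little.

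Adk 1369629_at had 901.7 and 1009.1 under the specific siRNA and 1098.8 and 1316.9 under the mutant siRNA. Adk 1369630_at had 2663.3 and 2561.3 under the specific siRNA and 3121.3 and 3231.7 under the mutant siRNA. Neither pair of groups overlapped, and the log2 fold changes were close to each other, -0.26 with an SE of 0.20 and -0.20 with an SE of 0.16. Their adjusted p were 0.38 for both, and their intervals ran from -0.73 to 0.21 and from -0.58 to 0.17.

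Nt5e, the surface enzyme, was dim. Its signals were 32.4 and 58.9 under the specific siRNA, below the array medians, and 111.0 and 146.5 under the mutant siRNA, above them. It passed the filter through the mutant siRNA arrays alone, so it had to be lower under the specific siRNA once it was tested. Its log2 fold change was -1.47 with an SE of 0.66, an interval from -2.97 to 0.04 and an adjusted p of 0.13, or 0.14 with the replicate block. The probe set was 3.35-fold lower in the replicate 1 pair and 2.28-fold lower in the replicate 2 pair.

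**Figure D3:**
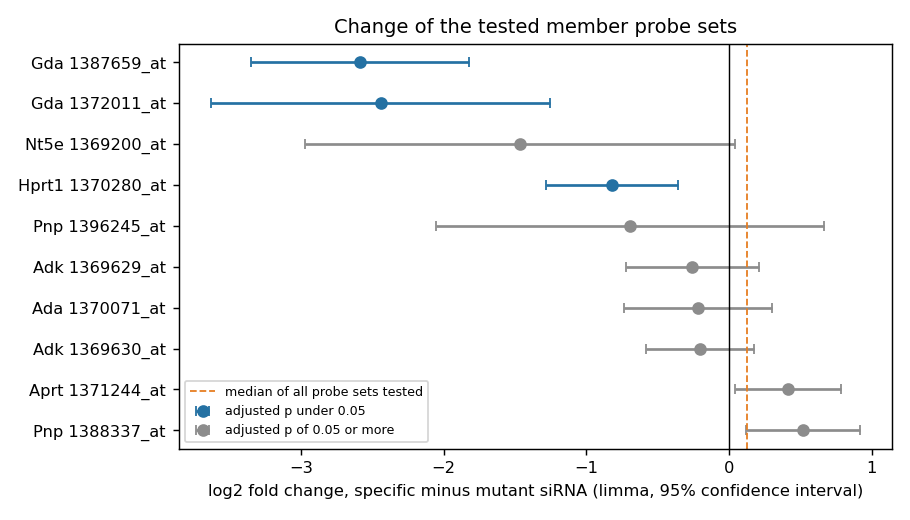
Log2 fold change of specific minus mutant siRNA for the 10 tested probe sets, with 95% confidence intervals from limma; blue is an adjusted p under 0.05 and the dashed line is the median of all probe sets tested, 0.13. Both Gda probe sets and Hprt1 are called, the intervals of Pnp 1388337_at and Aprt start just above 0, and those of the dim Nt5e and Pnp 1396245_at are the widest of the probe sets not called.

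After median centring, both specific siRNA signals were below both mutant ones for 6 of the 10 probe sets, where this held for 28.3% of all tested, and above them for 2, against 40.4% of all. The 6 include both probe sets of Gda, a gene that the study chose for its fall on these same arrays. They also include Nt5e, which the filter let in only because it differed.

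Other genes of nucleotide metabolism, receptors and transporters for extracellular nucleotides among them, and the binding partners of guanine deaminase were counted in 5 lists, which hold 86 genes with a probe set and 58 tested genes. Of 11 tested genes of purine synthesis from precursors, 1 fell and none rose, against 12.8% and 19.7% of all genes, and the list's median log2 fold change was -0.13. After quantile normalization, and also in the signals as deposited, 3 of the 11 were lower. The gene that fell was Adsl, which acts late in the synthesis of IMP and again in that of AMP. Its signals were 1185.8 and 1134.9 under the specific siRNA and 1906.8 and 1940.0 under the mutant siRNA. The change was -0.65 on the log2 scale with an SE of 0.18 and an adjusted p of 0.032, and the call was lost whichever of the 4 arrays was left out, with adjusted p from 0.054 to 0.13. With the replicate block 3 genes of the list were lower, the others being Pfas and Gart, enzymes of the same route, with adjusted p of 0.021 and 0.033 there and of 0.055 and 0.054 without the block.

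Of 20 tested genes of other purine interconversion and breakdown, 4 rose and 1 fell, with a median of 0.06, where 19.7% of all genes had a higher and 12.8% a lower probe set. The share that rose was thus close to that of all genes. Mocs2, which helps to make the molybdenum cofactor that Xdh needs, had signals of 2641.2 and 2096.6 under the specific siRNA and of 491.0 and 802.6 under the mutant siRNA, with a log2 fold change of 1.99, an SE of 0.26 and an adjusted p of 0.0027. Nt5c, which removes the phosphate from nucleoside monophosphates, had 911.9 and 903.9 against 361.1 and 450.1, with a log2 fold change of 1.25 and an adjusted p of 0.0066. Both were called whichever array was left out. Itpa, which clears inosine triphosphate, rose by 0.85 with an adjusted p of 0.023, and Gphn, which acts in the same cofactor pathway as Mocs2 and anchors inhibitory receptors, rose by 0.83 with an adjusted p of 0.030.

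The calls of Itpa and Gphn did not hold without mutant siRNA replicate 1, with adjusted p of 0.14 for each, and both were also lost without specific siRNA replicate 1, while that of Gphn was lost without mutant siRNA replicate 2 too. The gene that fell, Ampd2, which deaminates AMP, had a log2 fold change of -0.75 with an adjusted p of 0.046 in one probe set, lost whichever array was left out, and -0.16 in its other. Ampd2, like Pfas and Gart, is outside the 4 largest called changes of its list and was named after its values were seen. With the replicate block 6 genes of this list were higher and 3 lower, and 1 had probe sets in both directions, and under both other scalings 4 were higher and 3 lower.

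Of 26 genes for extracellular nucleotides and adenosine with a probe set, only 9 were bright enough to be tested, and 1 of them rose, against 19.7% of all genes. This was Entpd4, which splits nucleoside di- and triphosphates inside the Golgi and lysosomes. Its signals were 1052.3 and 633.8 under the specific siRNA and 209.5 and 232.8 under the mutant siRNA, with a log2 fold change of 1.97, an SE of 0.28 and an adjusted p of 0.0034. The median of the list was 0.17. With the replicate block 3 of its genes were higher, Enpp1 and Entpd6 being the others, with adjusted p of 0.010 and 0.017 there and of 0.15 and 0.057 without the block. Both were named after their values were seen.

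Pyrimidine synthesis and salvage had the most calls of the nucleotide lists, with 6 of 16 tested genes lower, none higher and a median of -0.63, against 12.8% of all genes lower and 19.7% higher. Tk1, which salvages thymidine, fell in all 3 of its probe sets, by 1.93, 1.79 and 1.24 on the log2 scale. In the first of them its signals were 241.7 and 441.7 under the specific siRNA and 1302.2 and 1335.7 under the mutant siRNA. Dut, which keeps uracil out of DNA, fell by 1.82 and 1.11 in its probe sets, with adjusted p of 0.014 and 0.0032. Rrm1, the large subunit of ribonucleotide reductase, fell by 1.04 with an adjusted p of 0.029. Ctps2, which makes CTP, had -2.12 with an adjusted p of 0.011 in a dim probe set and -0.24 with 0.44 in a brighter one. The dim probe set of Ctps2 and the Dut probe set with -1.82 passed the filter through the mutant siRNA arrays alone, so that their direction was fixed once they were tested. With the filter on all 4 arrays 5 of 15 tested genes were lower. The other genes that fell, Cad and Dtymk, were named after their values were seen.

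The count of this list was 3 without the intensity trend, and it depended on single arrays. Leaving out specific siRNA replicate 2 did not lower it. It was 4 when specific siRNA replicate 1 was left out, 3 for mutant siRNA replicate 1 and 2 for mutant siRNA replicate 2, and the calls of Rrm1 and Ctps2 were among those lost. Tk1 and Dut kept a called probe set whichever array was left out. In the same samples 14 of 18 cell cycle genes were lower and none higher, against 12.8% and 19.7% of all genes. The median log2 fold change of these cell cycle genes was -1.34. Their summed signal was 23700 and 43120 under the specific siRNA and 79300 and 88640 under the mutant siRNA. Without mutant siRNA replicate 2, 6 of the 18 were called, and 8 without mutant siRNA replicate 1 or without specific siRNA replicate 1. All 18 were called lower with the replicate block, in the signals as deposited and without specific siRNA replicate 2, and 6 without the intensity trend. The part of the cell cycle genes in the pyrimidine, Hprt1 and Adsl differences was not tested.

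**Figure D4:**
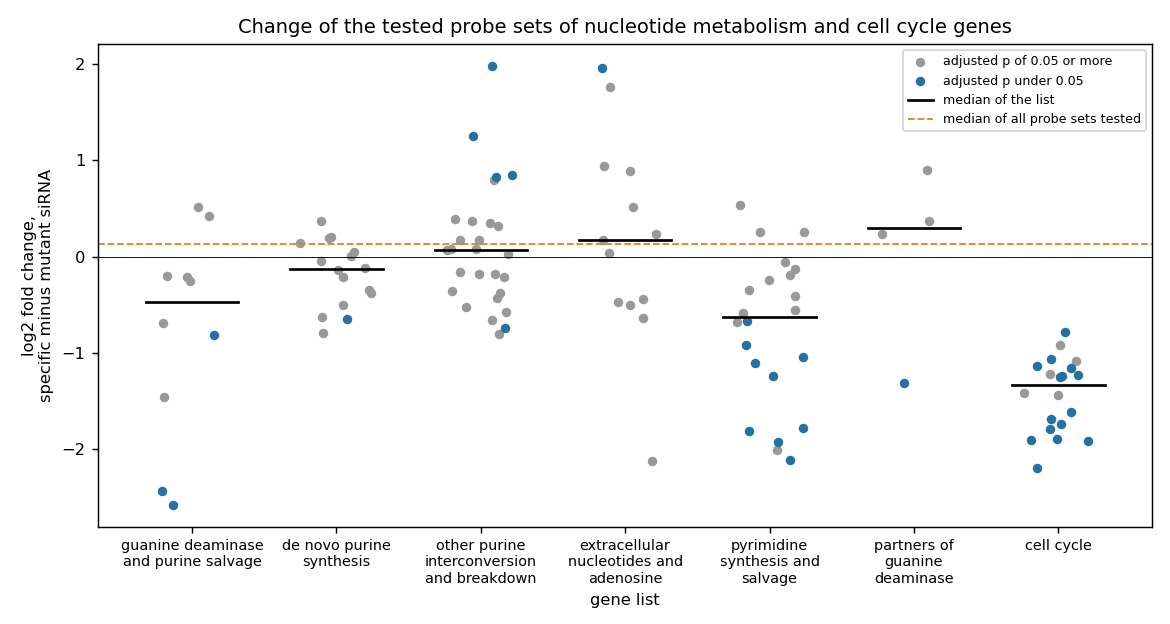
Log2 fold change of specific minus mutant siRNA for every tested probe set of the guanine deaminase and purine salvage genes and of the other lists, blue where the adjusted p is under 0.05, with a line at each list's median and a dashed line at the median of all probe sets tested. The guanine deaminase and purine salvage genes spread from -2.58 for Gda to 0.52 for Pnp. Purine synthesis has its median at -0.13, and pyrimidine synthesis at -0.63 and the cell cycle at -1.34 lie lower.

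Of Dlg4 and Snapin, proteins that guanine deaminase is known to bind, Dlg4 was called lower in 1 of its 2 tested probe sets. This probe set, 1395468_at, fell by 1.32 with an adjusted p of 0.019, from 327.0 and 377.6 under the mutant siRNA to 114.7 and 154.9 under the specific siRNA. Its other tested probe set had a log2 fold change of 0.90 with an adjusted p of 0.13, but this one passed the filter through the specific siRNA arrays alone, which fixed its direction. The call of 1395468_at was lost when mutant siRNA replicate 1 was left out, with an adjusted p of 0.079, or mutant siRNA replicate 2, with 0.12. Snapin had 0.37 and 0.23 in its probe sets, neither called.

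Markers of cell types were lower for Schwann cells and glia in 6 of 7 tested genes, Sox10 included, against 12.8% of all genes. Their summed signal was 2732 and 2207 under the specific siRNA against 18370 and 13280 under the mutant siRNA. Sox10, Ngfr and Erbb3 are among the genes that the study chose for their fall on these same arrays. The count and the summed signal are thus no independent evidence of the direction. Erbb3 passed the filter through the mutant siRNA arrays alone, which fixed its direction once it was tested. With the filter on all 4 arrays 4 of 5 tested genes were lower. Egr2 was the marker not called. Of smooth muscle markers 2 of 4 tested rose, Acta2 and Tagln, and 1 of them was called without mutant siRNA replicate 1. For comparison, 19.7% of all genes tested had a higher probe set. Myh11 was not called, with a log2 fold change of 1.375 and an adjusted p of 0.14. Its tested probe set passed the filter through the specific siRNA arrays alone, which fixed its direction. Smtn had the opposite sign in both its probe sets, with log2 fold changes of -0.84 and -0.47 and adjusted p of 0.063 and 0.45. The first of these Smtn probe sets was called lower with the replicate block, with an adjusted p of 0.013, and in the signals as deposited. The summed signal of the list was 23990 and 28800 against 6788 and 11400, of which Tagln gave 21241.7 and 22657.1 against 5481.7 and 9015.1. The smooth muscle genes Des, Cnn1 and Myocd were too dim to be tested. Of the macrophage, endothelial and fibroblast markers 1 gene each was tested, Cd14, Tek and Col1a1, and none was called. Ptprc and Pecam1, which define blood and endothelial cells, had no signal above 64.3. Other markers of these lists were brighter, Cd14 with 453.3 to 777.8 and Tek with 109.9 to 142.1 over the arrays. Col1a1 was the brightest, with 1371.3 to 2868.0 in 1388116_at and 531.9 to 1006.2 in 1370864_at. Col1a1 1388116_at had a log2 fold change of 0.70 with an adjusted p of 0.083. With the replicate block its adjusted p was 0.024, called as higher. Col1a1 1370864_at had a log2 fold change of -0.04 and was not called either way. The part of these markers in the Gda and Hprt1 differences was not tested.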

How the data were processed

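The authors deposited 1 intensity per probe set and array, the MAS5 signal on a linear scale, and the processing notes of the submitters give MAS5 with no version. The equal trimmed means show that the arrays were scaled. Detection calls were not used here. Of 31099 probe sets 57 controls were left out, and the platform annotation gives 20826 of the others a single symbol, 436 several and 9780 none. Members, gene lists and tests were chosen with earlier results of these data known.

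Each array's median was subtracted from its log2 signals, as the methods of the study state a median normalization. Where 2 or more of the 4 arrays reached their median a probe set was tested, 16125 in all. The test was lmFit and eBayes of limma 3.58.1, with an intensity trend, in R 4.3.3. A gene was counted as called if any of its tested probe sets was, and as split if they were called in opposite directions. All probe sets of the member genes were described, and the 4 largest called changes of each other list were named. The script was tested on simulated data. A fit with a replicate block took same-numbered arrays as pairs, since the study describes pairs of cell samples. Their deviations from the group means correlated at 0.14. Alternatives were other scalings, floors, filters, variance models, the methods' t-test (taken as unpaired, on log2 values) and each array left out. RefSeq windows on GRCr8 supplied the upstream sequences. Python 3.11.15, pandas 2.3.3 and matplotlib 3.10.9 were used.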

Additional observations from a re-analysis of the deposited data

How the results depend on the processing

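With 2 arrays in each group the variance model decides many calls, and dim signals, around an array's 25th percentile, say little about a change. The log2 fold change of Gda 1387659_at was called under all alternatives but the methods' t-test after Benjamini-Hochberg adjustment (-2.58, adjusted p of 0.20), and ranged from -3.11 to -2.06 with single arrays left out. That of Gda 1372011_at, -2.44, had an adjusted p of 0.058 without the intensity trend, 0.28 in the methods' t-test after adjustment and a p of 0.12 before it, and ranged from -3.38 to -1.51 with single arrays left out. The count of lower probe sets among the 10, 3 in the report, was 1 without the intensity trend (Gda 1387659_at), 1 to 3 with single arrays left out, and 0 in the methods' t-test after adjustment, where it was 2 before adjustment (Gda 1387659_at and Adk 1369630_at). The count of higher ones was 1 with the filter on all 4 arrays, 2 with the replicate block (Pnp and Aprt) and 0 to 1 with single arrays left out. The replicate block changed no other call among the 10. Over all 16125 tested probe sets it gave 3308 higher and 2580 lower. The sign turned only for Pnp 1396245_at, to 0.06 without specific siRNA replicate 1, and its range over single arrays left out was -1.44 to 0.06. Of the other alternatives for single probe sets of genes other than Gda, 106 kept their side of the threshold and their sign, 5 moved to a call and 6 lost one.

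Genes of the 5 other lists, nucleotide metabolism and the partners of guanine deaminase, that were called higher, 5 in the report, were 3 without the trend, 9 with the replicate block and 0 in the methods' t-test after adjustment, and 4 to 5 with single arrays left out. Those called lower, 9 in the report with Dlg4 among them, were 4, 14 and 0, were 14 in the methods' t-test before adjustment, and were 3 to 14 with single arrays left out. Over all probe sets 2348 were higher and 1956 lower; without the trend there were 1177 and 1187, after the methods' t-test with adjustment 2 and 0, before adjustment 2444 and 1386, and with single arrays left out 924 to 2128 and 706 to 2519. In the signals as deposited the split was 1940 higher and 2280 lower, and after quantile normalization 2043 and 2157, since the median log2 fold change of all tested probe sets was then 0.05 and 0.08 in place of 0.13.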
